A study of Rattus norvegicus with 20 samples.

Results

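Arterial gene expression under equilin was set against that under estradiol benzoate, a pair of related estrogens given at the same dose, by the same route and for the same time. The members are the 3 arrays labelled equilin and the 3 labelled estradiol benzoate, 6 of the 20 arrays in the series, read over every probe with a single gene symbol: 16865 of 35129 probes, of which 13324 (10225 genes) passed the filter on dim probes. Each array holds RNA of the mesenteric arteries of 1 rat, so replicates are single animals. All rats were female, of the Sprague Dawley strain. Their ovaries were removed at 4 weeks of age, dosing by gavage began after 2 weeks of recovery and ran daily for 3 weeks, and tissue was taken at 9 weeks of age. Equilin, estradiol benzoate and ethinyl estradiol were each given at 0.15 mg/kg per day in a 20% cyclodextrin solution, which the vehicle rats received alone. The fit behind each interval and p also used 4 tamoxifen and 3 raloxifene arrays, both at 3 mg/kg per day. The removal of the ovaries is thus shared by every group, vehicle included. The arterial tree had been dissected away from veins and fat, and whole vessel wall was extracted, so a lower level can mean fewer cells of a type or less RNA per cell, and these cannot be told apart here.

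Estrogens act through the nuclear receptors encoded by Esr1 and Esr2, which bind DNA as dimers and recruit coactivators, and the vessel wall expresses both. Estradiol benzoate is an ester of estradiol, the main ovarian estrogen, and is hydrolysed to estradiol in the body. Equilin is an estrogen of the pregnant mare and a component of conjugated equine estrogens. It differs from estradiol by an extra double bond in the B ring and by a ketone in place of the hydroxyl group of the D ring. In arteries, estrogens are best known for effects on endothelial nitric oxide, on matrix synthesis and on smooth muscle growth. The submitters set out to examine several estrogen formulations and receptor modulators in this vessel, and this pair is the comparison of 2 compounds at a matched dose described here, so that 1 pair was compared.

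Values are log2 intensities, each array centred on its own median, so that 0 is the level of the median probe of an array and a difference of 1 is a doubling. Deposited array medians of the 6 arrays ran from 1.0431 to 1.0612. Vehicle replicate 1 had 1.0457, while vehicle replicates 2, 3 and 4 had 1.0007, 1.0101 and 1.009, below all 6. The labels name no hybridisation or scan batch, and the cause was not tested. Pairwise Pearson correlations over the probes ran from 0.973 to 0.988 among the equilin arrays, from 0.977 to 0.985 among the estradiol benzoate arrays and from 0.965 to 0.985 between them. Equilin replicate 1 correlated more closely with estradiol benzoate replicate 3 (0.985) than with equilin replicates 2 and 3 (0.977 and 0.973). The smooth muscle markers Myh11 and Tagln had mean levels of 8.14 and 7.58 over the 20 arrays, far above the array median. The Acta2 probe, for the smooth muscle actin, stood near the array median (a mean of -0.26), so it says little about this muscle. Fat cell markers were bright as well. The mean level of 18 adipocyte genes was 4.995 under equilin and 4.65 under estradiol benzoate. For 25 contractile genes of smooth muscle it was 4.35 and 4.46. Ethinyl estradiol and vehicle levels are given for orientation, and among them ethinyl estradiol replicate 3 and vehicle replicate 1 had mean pancreatic acinar marker levels of 5.37 and 2.68, where the 6 arrays compared ran from -1.55 to -0.07.

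No probe passed the test. With limma over all 20 arrays, 0 of 24562 probes (0%) had an adjusted p under 0.05 in either direction, and the lowest adjusted p was 0.057, for Cbr1 and Me1. At an unadjusted p under 0.05 there were 836 probes (3.4%), 329 higher (1.34%) and 507 lower (2.06%) under equilin. This fit takes its spread from every group, and raloxifene replicate 3 resembled the rest least. Its Pearson r averaged 0.841, where each remaining array averaged between 0.919 and 0.959. Without it the unadjusted count was 1699 (6.92%), and with only the 6 compared arrays 3487 (14.2%). The counts, intervals and p given here thus depend on arrays outside the pair. Of the other settings tried, 7 passed between 1 and 5 probes, and weighting the arrays by their quality passed 4035. A p that misses the threshold does not show that the compounds act alike. The 95% confidence interval of the difference lay within 1 log2 unit of 0 for 7704 of 10225 genes (75.3%) and within 0.5 for 1392 (13.6%), with a median half-width of 0.54. For most genes a difference of more than a doubling thus lay outside the interval, while the narrower bound held for few.

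The direction of the differences was uneven. With 1 probe per gene, the brightest, 65.4% of genes read lower and 34.6% higher under equilin, and the median difference was -0.09. All 3 equilin arrays lay above all 3 estradiol benzoate arrays for 564 genes (5.52%) and below them for 1602 (15.7%). After quantile normalisation the same counts were 862 (8.43%) and 1196 (11.7%), and the median difference was -0.03. At an unadjusted p under 0.05 the counts per gene were 131 higher (1.28%) and 238 lower (2.33%). The shift differed with the level. In 10 equal groups of probes ordered by level, the median difference was 0.05 in the dimmest group, -0.13 in groups 8 and 9 and -0.05 in the brightest group. With quantile normalisation it was 0.05, -0.03 and -0.001 in the same groups. The counts for gene groups below are read against these background shares.

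**Figure D1:**
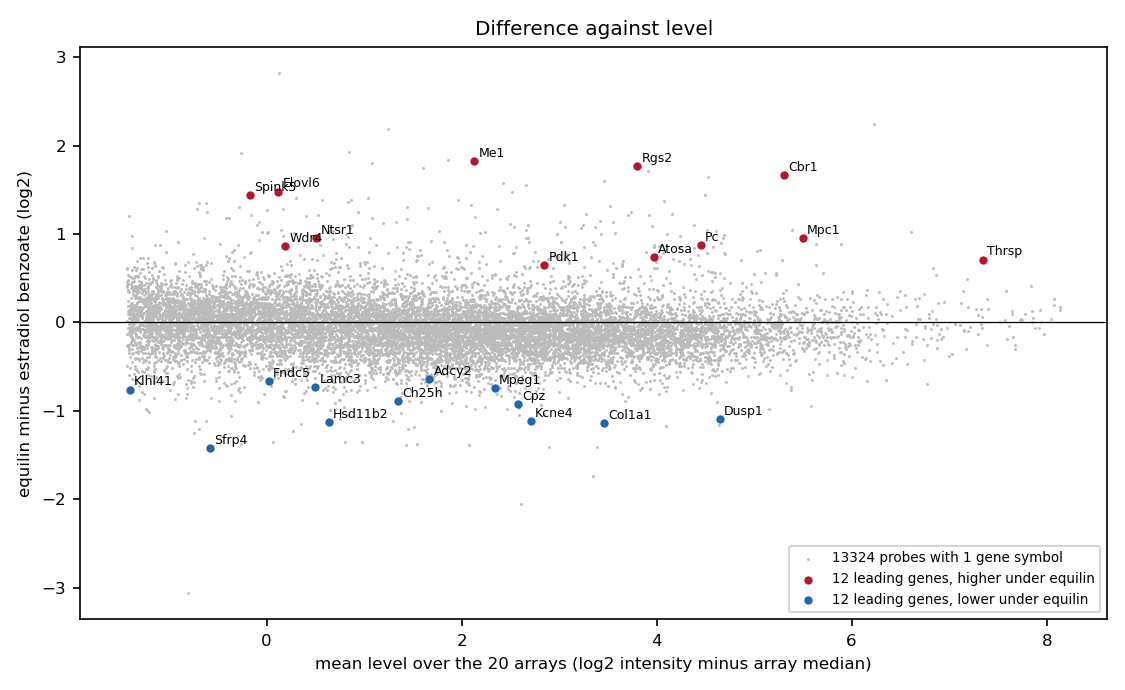
Difference between equilin and estradiol benzoate (vertical axis, log2) against the mean level over the 20 arrays (horizontal axis, log2 intensity minus array median) for the 13324 tested probes with 1 gene symbol, 1 grey point each. The leading 12 genes in each direction, chosen as those with the smallest unadjusted p whose arrays do not overlap, are coloured. Most probes lie within 1 log2 unit of 0, and Cbr1 (1.67) and Me1 (1.82) lie above that band.

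Cbr1 encodes carbonyl reductase, an NADPH-dependent enzyme that reduces ketones and quinones. Its levels under equilin were 6.11, 6.05 and 6.17, and under estradiol benzoate 4.61, 4.33 and 4.37. Every equilin array lay more than a log2 unit above every estradiol benzoate array. Groups that do not overlap were a condition for choosing the leading genes, Cbr1 and those named below included. The difference was 1.67 (95% CI 1.14 to 2.21), a 3.19-fold higher level under equilin, with an adjusted p of 0.057 in limma. Under ethinyl estradiol the mean was 6.40, and the 4 vehicle arrays ran from 4.35 to 4.92. Cbr1 was the gene most often past the threshold when the processing was changed, in 8 of 20 alternatives, and leaving out any 1 of the 6 arrays gave differences between 1.62 and 1.76.

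Me1 encodes cytosolic malic enzyme, which makes pyruvate and NADPH from malate, the NADPH being used in fatty acid synthesis. Its levels on the probe with the lower p were 3.16, 4.08 and 3.04 under equilin and 1.62, 1.62 and 1.59 under estradiol benzoate. The difference was 1.82 (95% CI 1.23 to 2.42), a 3.54-fold higher level, with an adjusted p of 0.057 in limma. A brighter Me1 probe read 5.55, 5.996 and 5.18 against 4.07, 4.34 and 3.997, a difference of 1.44 (95% CI 0.91 to 1.98). On both probes the equilin arrays stood wholly above, with replicate 2 the highest of them. For the first probe this was a condition of its choice. Mpc1 encodes a subunit of the carrier that brings pyruvate into mitochondria. It read 6.05, 6.40 and 5.96 under equilin and 5.25, 5.17 and 5.14 under estradiol benzoate, a difference of 0.95 (95% CI 0.60 to 1.30) with an adjusted p of 0.121 in limma. Ethinyl estradiol means were 3.50 for the first Me1 probe and 6.36 for Mpc1, and the 4 vehicle arrays ran from 1.41 to 2.01 and from 5.02 to 5.40.

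Cbr1, Me1 and Mpc1 are the annotated genes that passed the threshold in at least 2 alternatives besides the weighting of arrays, so the 250 bases before their annotated starts are shown, from RefSeq on GRCr8, 5′ to 3′ on the strand of the gene. Of the 24 leading genes, 18 have a promoter entry in that table. The motifs searched, on both strands, were the estrogen response element (GGTCA, any 3 bases, then TGACC), its half-site GGTCA, which the full element contains, the antioxidant response element core TGACNNNGC, the CCAAT box CCAAT and the GC box GGGCGG. Capitals mark 1 kind of motif in each window: the half-site for Cbr1 (chr11:46346155-46346404, plus strand), the antioxidant response element core for Me1 (chr8:96540245-96540494, minus strand) and the CCAAT box for Mpc1 (chr1:54996959-54997208, minus strand).
Cbr1: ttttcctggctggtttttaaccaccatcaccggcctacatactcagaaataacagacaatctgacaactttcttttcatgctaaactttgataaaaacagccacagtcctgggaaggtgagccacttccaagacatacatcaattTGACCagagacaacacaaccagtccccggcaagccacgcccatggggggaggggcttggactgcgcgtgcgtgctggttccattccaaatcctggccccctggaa
Me1: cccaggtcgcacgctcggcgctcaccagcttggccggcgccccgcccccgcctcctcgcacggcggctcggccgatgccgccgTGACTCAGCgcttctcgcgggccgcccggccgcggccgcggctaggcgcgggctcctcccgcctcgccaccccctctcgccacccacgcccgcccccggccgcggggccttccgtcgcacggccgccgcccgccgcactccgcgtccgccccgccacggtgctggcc
Mpc1: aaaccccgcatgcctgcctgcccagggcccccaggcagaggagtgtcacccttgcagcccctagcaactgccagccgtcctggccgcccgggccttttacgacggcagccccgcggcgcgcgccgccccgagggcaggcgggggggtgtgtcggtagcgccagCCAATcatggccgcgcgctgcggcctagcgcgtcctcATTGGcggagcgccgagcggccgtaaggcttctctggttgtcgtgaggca
The half-site of Cbr1 begins 105 bases before the start and lies on the opposite strand, and 35.4% of 33469 promoter windows of this length hold one. The antioxidant response element core of Me1 begins 167 bases before the start, and 10.1% of windows hold one. The window of Mpc1 holds CCAAT boxes beginning 87 and 50 bases before the start, as 34% of windows hold at least 1. None of these 3 windows holds the full estrogen response element, which is in 0.0239% of all windows. The GC box matches 5 times in Me1 and 2 times in Mpc1, and is in 30.5% of windows.

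The genes of fatty acid and triglyceride synthesis stood higher under equilin as a group. Of 26 listed genes 23 were tested, none passed the test, and the equilin arrays lay wholly above the estradiol benzoate arrays for 10 of 23 (43.5%, against 5.52% of all genes) and wholly below for 0. The median difference was 0.65, against -0.09 for all genes. After quantile normalisation 12 of 23 lay wholly above, where 8.43% of all genes did. The 10 genes are Fasn, Me1, Elovl6, Acly, Acaca, Aacs, Pc, Thrsp, Acss2 and Scd. Acaca, the acetyl-CoA carboxylase that commits carbon to fatty acids, differed by 0.89 (95% CI 0.18 to 1.60). Scd, the desaturase that makes oleate, differed by 0.65 (95% CI -0.10 to 1.39), and Aacs, which activates acetoacetate for lipid synthesis, by 0.85 (95% CI 0.18 to 1.52). Members at the low end were Acsl5 at -0.48, Mid1ip1 at -0.22 and Elovl5 at -0.21.

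Elovl6, the elongase of saturated fatty acids, read 1.27, 1.54 and 0.62 under equilin and -0.62, 0.18 and -0.56 under estradiol benzoate, a difference of 1.48 (95% CI 0.69 to 2.27). A second, brighter probe gave 1.41, and neither probe's groups overlapped. Thrsp, the lipogenic protein Spot 14, read 7.85, 8.12 and 7.65 against 7.25, 7.15 and 7.08, a difference of 0.71 (95% CI 0.31 to 1.11). Fasn, the fatty acid synthase, read 7.11, 7.44 and 7.14 against 2.06, 6.54 and 6.36, so that estradiol benzoate replicate 1 stood far below the other arrays on this probe. Its difference was 2.24 (95% CI 0.63 to 3.85), and 0.78 without that array. Single arrays stood far off on other probes with large differences too. Estradiol benzoate replicate 1 read -3.49 for Sgsm1 (2.29 and 2.17 on replicates 2 and 3) and 8.255 for Padi1 (-1.12 on both). The -3.49 is the floor of that array, given to deposited values at or below 0, and is not a measured level. Equilin replicate 1 read -2.71 for Topors (2.63 and 2.73 on replicates 2 and 3). Ethinyl estradiol means were 1.72 for the first Elovl6 probe, 8.24 for Thrsp and 7.56 for Fasn.

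Pc, the mitochondrial pyruvate carboxylase that makes oxaloacetate, is read by 26 probes on this array. All 26 differences were above 0, with a median of 0.86, and the groups did not overlap on 21. The median over probes was 4.81, 4.97 and 4.67 under equilin and 3.95, 3.69 and 3.98 under estradiol benzoate. These probes measure 1 gene in the same 6 rats and are not replicates. Other genes with many probes are given as comparators. Sdha, a subunit of succinate dehydrogenase, had a median of 0.26 over 16 probes with 12 above 0. Pgk1, a glycolytic kinase, had -0.02 over 25, Hk1, a hexokinase, -0.15 over 26, and Hprt1, a purine salvage enzyme, -0.24 over 25.

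**Figure D2:**
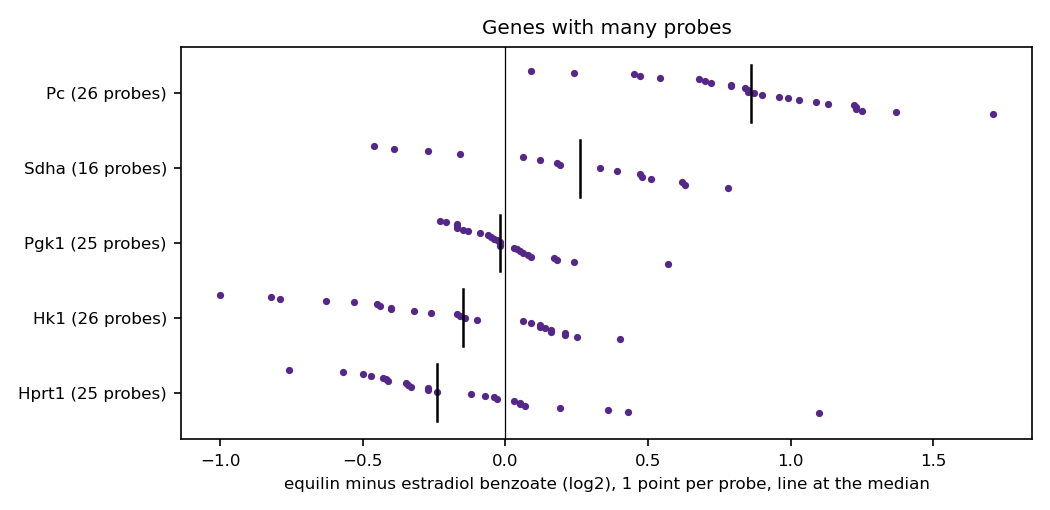
Difference between equilin and estradiol benzoate (horizontal axis, log2) for every tested probe of 5 genes that the array reads with many probes, 1 point per probe with a line at the median. All 26 Pc probes lie to the right of 0, while the probes of Pgk1, Hk1 and Hprt1 lie on both sides.

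Transcripts for glucose use and the entry of pyruvate into mitochondria had a smaller median difference in the same direction, with 15 of 19 above 0. In the list for glycolysis and pyruvate entry 0 of 19 tested genes passed the test. Wholly above under equilin lay 9 (47.4%, against 5.52% of all genes) and wholly below 0. After quantile normalisation 6 lay above, where 8.43% of all genes did. The median difference was 0.22. Pdk1, a kinase that inhibits pyruvate dehydrogenase, read 3.42, 3.51 and 3.17 against 2.68, 2.61 and 2.86, a difference of 0.65 (95% CI 0.30 to 1.004). A second Pdk1 probe gave 0.35. Aldoa, the muscle aldolase, differed by 0.64 (95% CI 0.02 to 1.26) and Pfkl, a phosphofructokinase, by 0.56 (95% CI -0.005 to 1.13). Pfkp read lower, at -0.42, and the glucose transporter Slc2a1 at -0.16, while the insulin-regulated transporter Slc2a4 differed by 0.44.

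Of 36 tested genes of oxidative phosphorylation 7 lay wholly above (19.4%, against 5.52% of all genes) and 0 below, with a median of 0.07. Cycs, cytochrome c, differed by 0.37 (95% CI 0.02 to 0.73). In the list for fatty acid oxidation and ketone use 2 of 20 lay above (10%, against 5.52%) and 0 below, with a median of 0.14. Its gene with the smallest p was Pdk4, another pyruvate dehydrogenase kinase, at 1.28 (95% CI 0.08 to 2.49). Sterol synthesis and uptake gave a different picture: 1 of 17 genes lay above (5.88%, against 5.52% of all genes) and 0 below. The median was -0.06, or 0.03 after quantile normalisation. The gene above was Insig1, the sterol-sensing regulator of this pathway, at 0.45 (95% CI -0.07 to 0.97). The 26 tested genes of cytosolic ribosomal proteins had a median of 0.00, with 1 above and 1 below (3.85% each, against 5.52% and 15.7%).

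Markers of fat cells read higher alongside these groups. Of 22 listed adipocyte genes 19 were tested, and 18 of the 19 differences were above 0, with a median of 0.28. The equilin arrays lay wholly above for 6 (31.6%, against 5.52% of all genes) and below for 0. Summed over the 18 genes measured on all arrays, the linear level, in multiples of the array median, was 1585 to 1661 under equilin and 1138 to 1513 under estradiol benzoate. Estradiol benzoate replicate 1, at 1513, was closest to the equilin arrays. The defining markers Plin1, Plin4 and Retn have no single-symbol probe here. Adipoq, the fat cell hormone adiponectin, read 6.87 on average under equilin and 6.58 under estradiol benzoate, a difference of 0.29 (95% CI -0.14 to 0.72). Pnpla2, the triglyceride lipase of fat cells, read 6.91, 7.14 and 7.36 against 6.81, 6.38 and 6.36, a difference of 0.62 (95% CI 0.21 to 1.04). Pck1, which makes glycerol for lipid storage in fat, differed by 1.02 (95% CI 0.16 to 1.87) with overlapping groups, and by 0.69 to 1.45 when single arrays were left out. Lep, the hormone leptin, differed by 0.08 and Fabp4, a fatty acid carrier, by 0.13. The part of these cells in the differences of the lipid genes was not tested.

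**Figure D3:**
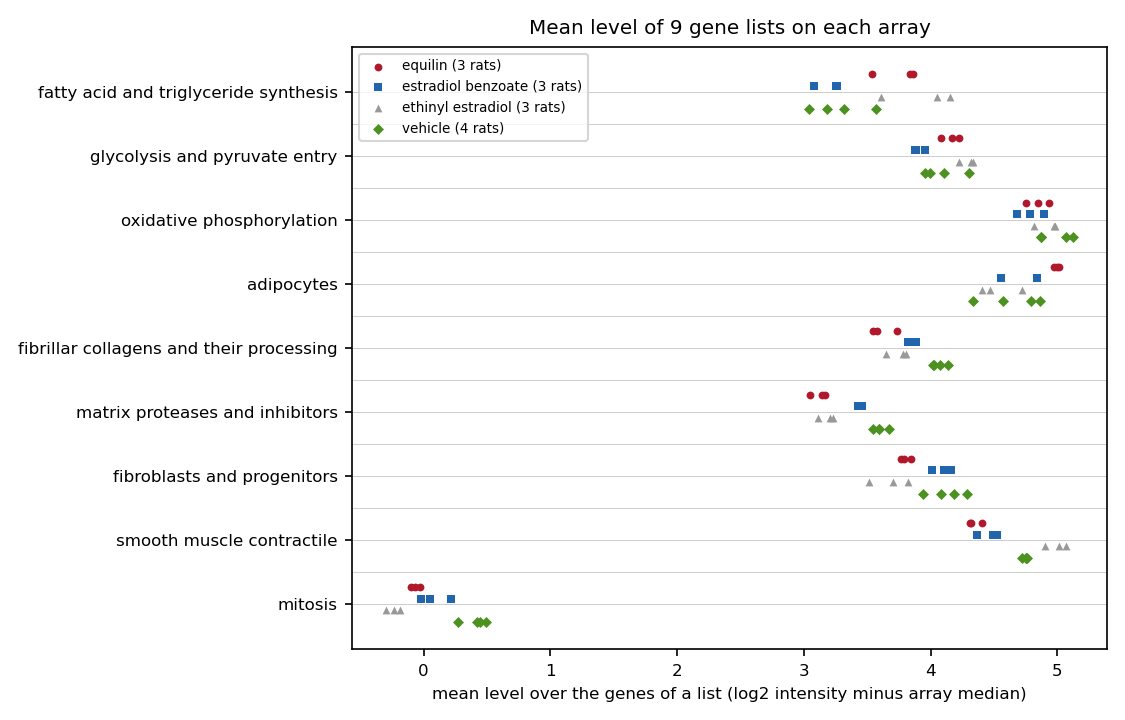
Mean level over the genes of 9 lists on each array (horizontal axis, log2 intensity minus array median), 1 symbol per rat for equilin, estradiol benzoate, ethinyl estradiol and vehicle. The equilin arrays lie above the estradiol benzoate arrays for fatty acid synthesis, glycolysis and the adipocyte markers, and below them for the collagens, the matrix proteases and the fibroblast markers.

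The enzymes of xenobiotic oxidation and carbonyl reduction, the list that holds Cbr1, had a median of 0.14. Of 23 tested genes 7 lay wholly above (30.4%, against 5.52% of all genes) and 3 below (13%, against 15.7%). Cbr3, a related carbonyl reductase, differed by 0.43. Cyp2e1, the ethanol-inducible cytochrome P450, read 2.61, 2.28 and 2.59 under equilin and 2.17, 0.34 and -0.52 under estradiol benzoate. Its difference was 1.83 (95% CI 0.61 to 3.05) and ran from 1.23 to 2.58 when single arrays were left out. Por, the reductase that supplies electrons to cytochromes P450, differed by 0.70 (95% CI -0.09 to 1.48). Fmo1, a flavin monooxygenase, differed by 0.92. The aldehyde dehydrogenase Aldh3a1 lay below, at -0.38, and the quinone reductase Nqo1 read -0.22 with overlapping groups.

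The other leading genes on the higher side lay outside these pathways. Ntsr1, the neurotensin receptor, read 0.83, 0.77 and 0.57 under equilin and -0.14, -0.22 and -0.33 under estradiol benzoate, a difference of 0.95 (95% CI 0.52 to 1.39). Spink5, a serine protease inhibitor, read 0.96, 1.08 and 0.72 against -0.03, -0.85 and -0.69. Its 3 probes gave 1.18, 1.44 and 1.91, and the groups overlapped on none of them. Rgs2, a regulator that shortens signalling by vasoconstrictor receptors, read 4.52, 4.27 and 4.04 against 0.83, 3.51 and 3.19. Its difference was 1.77 (95% CI 0.73 to 2.80) and 0.93 without estradiol benzoate replicate 1, the array that reads lowest. Atosa differed by 0.74 (0.48 on a second probe) and Wdr4, part of a tRNA methyltransferase, by 0.86 (0.19 on a second probe). The adjusted p of these 5 genes in limma lay between 0.609 and 0.999.

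**Figure D4:**
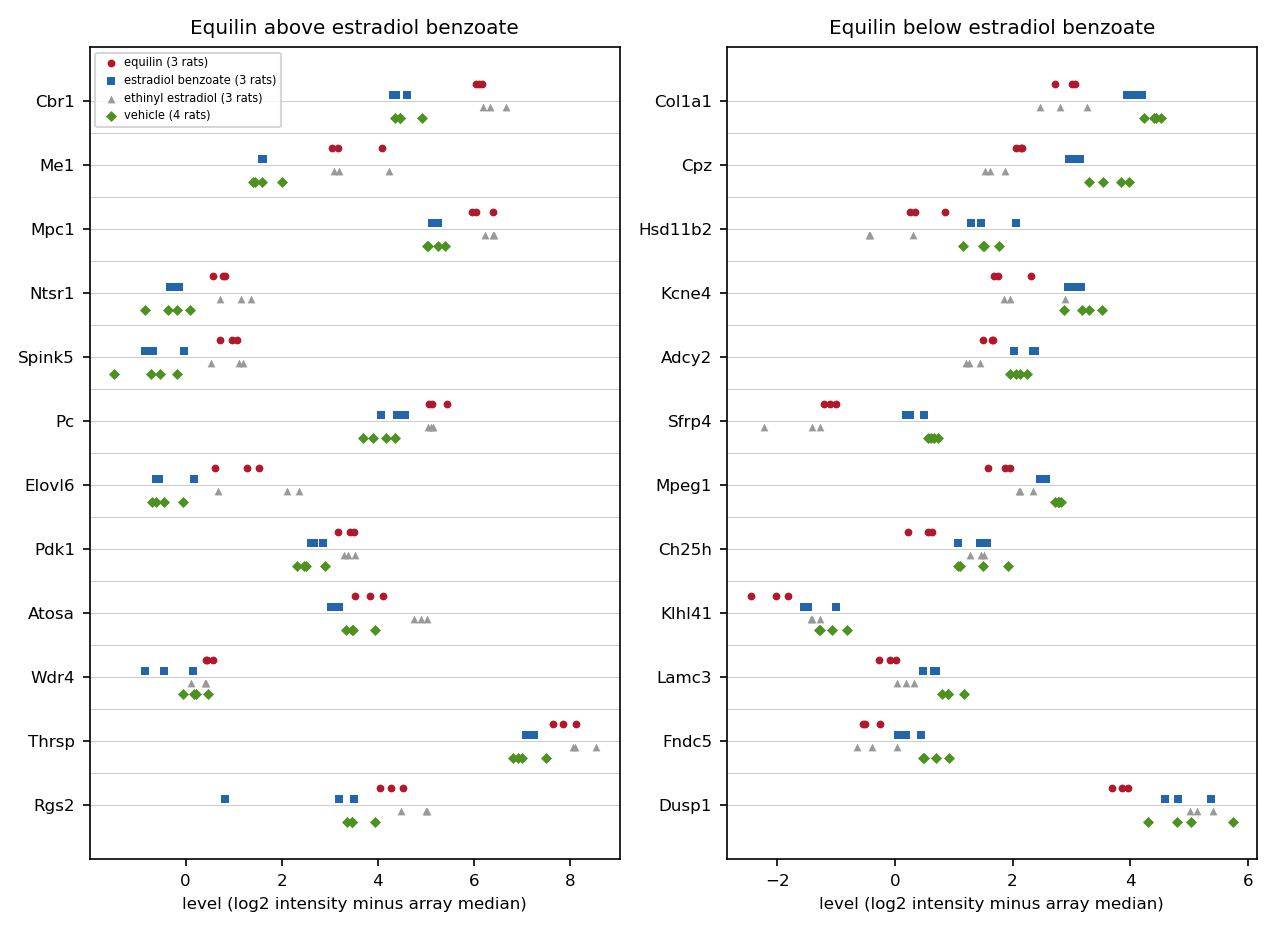
Levels of the 24 leading genes on each array (horizontal axis, log2 intensity minus array median), 12 that read higher and 12 that read lower under equilin, 1 symbol per rat. For Cbr1 the equilin arrays sit between 6.05 and 6.17 and the estradiol benzoate arrays between 4.33 and 4.61, and for Col1a1 between 2.72 and 3.07 and between 3.95 and 4.20; ethinyl estradiol and vehicle are drawn for orientation.

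On the lower side the leading gene was Col1a1, which encodes a chain of type I collagen, the main fibrillar collagen of the adventitia. It read 3.07, 2.72 and 3.01 under equilin and 4.08, 4.20 and 3.95 under estradiol benzoate. The difference was -1.14 (95% CI -1.57 to -0.72), a 2.21-fold higher level under estradiol benzoate, with an adjusted p of 0.121 in limma. A brighter probe of the gene differed by -0.60 (95% CI -1.18 to -0.03). The 4 vehicle arrays ran from 4.23 to 4.53 and the ethinyl estradiol mean was 2.85. Cpz, a carboxypeptidase of the matrix that binds Wnt proteins, read 2.16, 2.06 and 2.15 against 3.02, 3.14 and 2.97, a difference of -0.92 (95% CI -1.33 to -0.51). Sfrp4, a secreted inhibitor of Wnt signalling, read -1.21, -1.10 and -1.01 against 0.18, 0.49 and 0.26, a difference of -1.42 (95% CI -2.18 to -0.66). That the groups of these 3 genes lay apart follows from how the leading genes were chosen. Leaving out single arrays kept the Col1a1 difference between -1.21 and -1.03.

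The fibrillar collagens and their processing enzymes followed in part. None of 22 tested genes passed the test, 6 lay wholly below under equilin (27.3%, against 15.7% of all genes) and 0 above, and the median was -0.27. Col5a2, a chain of type V collagen, differed by -0.76 (95% CI -1.29 to -0.24), and Pcolce, which enhances procollagen cleavage, by -0.65 (95% CI -1.06 to -0.23). Loxl1, a cross-linking oxidase of elastic fibres, differed by -0.47 and Col1a2 by -0.43. Serpinh1, the collagen chaperone, read 0.29 and Sparc, a collagen-binding glycoprotein, 0.14. In the basement membrane list 4 of 10 genes lay below (40%), or 3 after quantile normalisation, and 0 above, with a median of -0.24. Lama5, a laminin chain, read -0.61. Agrn, agrin, read -0.55, and -0.34 without equilin replicate 3, with -0.07 on a dim second probe. Col4a1, a chain of type IV collagen, had the largest difference of the list and in the other direction, at 1.04 with overlapping groups (95% CI -0.55 to 2.64), and its second probe gave -0.34. Lamc3, another laminin chain and 1 of the leading genes, read -0.09, 0.02 and -0.27 against 0.70, 0.48 and 0.67, a difference of -0.73 (95% CI -1.15 to -0.31).

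Among elastic, matricellular and adhesive matrix genes 6 of 23 lay below (26.1%, against 15.7% of all genes), with a median of -0.19. Tnc, tenascin C, read 1.17, 0.59 and 0.14 against 1.80, 1.62 and 1.55, a difference of -1.02 (95% CI -1.78 to -0.26), and its second probe gave -0.73. Fn1, fibronectin, differed by -0.59 (95% CI -1.003 to -0.17) and by -0.13 on a dimmer probe. Postn, periostin, differed by -0.51 (95% CI -0.99 to -0.04). The matrix proteases and their inhibitors had the lowest median of the 39 lists, -0.38, with 8 of 14 wholly below (57.1%) and 0 above. A2m, the broad protease inhibitor, read -0.999, -1.497 and -1.93 against -0.30, -0.56 and 0.03, a difference of -1.20 (95% CI -1.93 to -0.46). Serpine2, an inhibitor of thrombin, differed by -0.74, Timp1, an inhibitor of matrix metalloproteinases, by -0.63 and Mmp2, a gelatinase, by -0.41. A dim Mmp2 probe read 0.09. Timp3 stood apart from the list at 0.45.

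Fibroblast markers read lower alongside these genes. Of 17 tested, 6 lay wholly below (35.3%, against 15.7% of all genes) and 0 above, with a median of -0.20. The summed linear level was 797.5 to 880.2 under equilin against 916.3 to 977.1 under estradiol benzoate. Col14a1, a collagen of adventitial fibroblasts, differed by -0.57 (95% CI -0.92 to -0.21), with -0.35 on a second probe. Fap, the fibroblast activation protein, differed by -0.71 (95% CI -1.39 to -0.03). The part of these cells in the differences of the matrix genes was not tested.

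**Figure D5:**
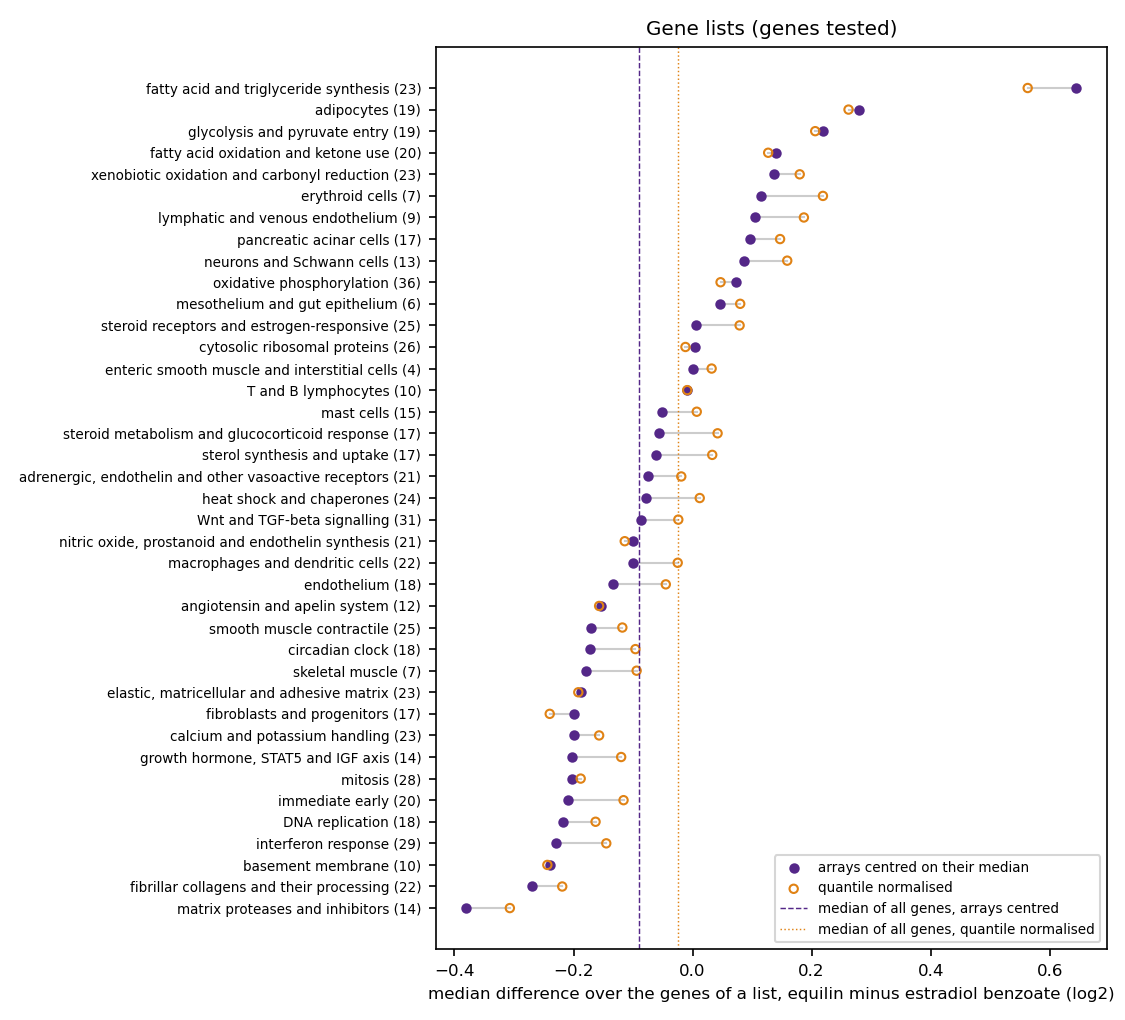
Median difference between equilin and estradiol benzoate over the tested genes of each of 39 lists (horizontal axis, log2; number of genes in brackets), with arrays centred on their median (filled) and quantile normalised (open), and the medians of all genes as vertical lines. Fatty acid and triglyceride synthesis stands at the top (0.65 and 0.56) and matrix proteases and inhibitors at the bottom (-0.38 and -0.31).

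Further leading genes on the lower side were an enzyme of steroid metabolism, a channel subunit and a cyclase. Hsd11b2, the dehydrogenase that inactivates glucocorticoids, read 0.85, 0.26 and 0.34 under equilin and 1.29, 2.07 and 1.46 under estradiol benzoate, a difference of -1.13 (95% CI -1.65 to -0.60). Kcne4, an accessory subunit of voltage-gated potassium channels, read 2.32, 1.76 and 1.69 against 2.94, 3.17 and 3.02, a difference of -1.12 (95% CI -1.68 to -0.57). Adcy2, an adenylyl cyclase, read 1.504, 1.67 and 1.66 against 2.35, 2.38 and 2.02, a difference of -0.64 (95% CI -0.97 to -0.30). Groups that lie apart were a condition for choosing these 3 genes. In the list for nitric oxide, prostanoid and endothelin synthesis 3 of 21 genes lay above (14.3%, against 5.52% of all genes) and 5 below (23.8%, against 15.7%). After quantile normalisation 3 and 2 did, against 8.43% and 11.7% of all genes. Ptgs2, the inducible cyclooxygenase, read 1.90, 1.71 and 1.44 against 2.76, 3.63 and 2.85, a difference of -1.40 (95% CI -2.29 to -0.51). Gucy1a1, a subunit of the nitric oxide receptor, differed by -0.73 (95% CI -1.41 to -0.05). Nos3, the endothelial nitric oxide synthase, differed by 0.27 (95% CI -0.31 to 0.86) and by -0.04 without estradiol benzoate replicate 1.

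Of 23 genes of calcium and potassium handling 1 lay above (4.35%, against 5.52% of all genes) and 5 below (21.7%, against 15.7%). The 1 above was Kcnk3, an acid-sensitive potassium channel, at 0.54 (95% CI 0.10 to 0.99). In the angiotensin and apelin list 2 of 12 genes lay above (16.7%) and 2 below (16.7%), with a median of -0.15. Apln, the vasodilator peptide apelin, read 0.67, 0.54 and 0.56 against 1.60, 1.56 and 1.25, a difference of -0.88 (95% CI -1.85 to 0.09). Its receptor gene Aplnr differed by -0.63 (95% CI -1.49 to 0.24), with 0.36 on a dim second probe. Agtr1a, the angiotensin II receptor, differed by -0.44 (95% CI -1.03 to 0.16), and by -0.29 without equilin replicate 3. Of 21 adrenergic, endothelin and other vasoactive receptor genes 0 lay above and 5 below (23.8%, against 15.7% of all genes). After quantile normalisation 2 lay below, where 11.7% of all genes did.

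Contractile genes of smooth muscle had a median difference of -0.17, against -0.09 for all genes. Wholly below lay 7 of 25 (28%, against 15.7% of all genes). After quantile normalisation 4 of 25 did, against 11.7% of all genes. Pln, phospholamban, the brake on the calcium pump of the sarcoplasmic reticulum, read 5.05, 5.62 and 5.42 against 5.79, 6.12 and 6.18, a difference of -0.66 (95% CI -1.14 to -0.19). Its other probes gave -0.59 and -1.23, and none of the 3 had overlapping groups. Tpm1, a tropomyosin, differed by -0.30 (95% CI -0.60 to 0.01). Tagln, transgelin, read 0.36 (95% CI -0.10 to 0.82), and 0.06 without estradiol benzoate replicate 3. Probes of Myh11, the smooth muscle myosin, disagreed, at 0.17 on the brighter (0.08 without estradiol benzoate replicate 3) and -0.47 on the dimmer. Myocd, the coactivator of this gene set, differed by 0.22 and by -0.10 without estradiol benzoate replicate 1.

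Immediate early genes, which respond within minutes to growth factors, read lower in part. Of 20 tested, 5 lay wholly below (25%, against 15.7% of all genes) and 1 above (5%, against 5.52%), and the median was -0.21. Fos read 2.90, 2.44 and 1.92 under equilin and 3.37, 5.23 and 3.88 under estradiol benzoate, a difference of -1.74 (95% CI -2.86 to -0.63), and a second probe gave -1.37. The estradiol benzoate arrays were widely spread on this gene, with replicate 2 the highest. Dusp1, the phosphatase that ends MAP kinase signalling, read 3.96, 3.86 and 3.69 against 4.82, 5.38 and 4.58, a difference of -1.09 (95% CI -1.72 to -0.46). Egr1 differed by -1.16 (95% CI -1.94 to -0.38), with -0.11 on a dim second probe, and by -0.74 without equilin replicate 3. Junb and Jund read 0.28 and 0.32.

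Genes of cell division, at low levels, had list medians below the -0.09 of all genes. In the mitosis list 8 of 28 lay wholly below (28.6%, against 15.7% of all genes) and 2 above (7.14%), with a median of -0.20. In the DNA replication list 5 of 18 lay below (27.8%) and 0 above, with a median of -0.22. Top2a, the topoisomerase of dividing cells, read -0.15, -0.30 and 0.04 against 0.26, 0.69 and 0.39, a difference of -0.58 (95% CI -1.04 to -0.13), where the 4 vehicle arrays ran from 0.945 to 1.40. Mcm5, a subunit of the replicative helicase, differed by -0.81 (95% CI -1.49 to -0.14) and Cks2, a cyclin-dependent kinase subunit, by -0.61. Mad2l1, a spindle checkpoint gene, read higher, at 0.50 (95% CI 0.06 to 0.94), as did the kinesin Kif11, at 0.25.

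The receptors and classical targets of estrogens showed no shared direction. Of 25 tested genes in that list 2 lay above (8%, against 5.52% of all genes) and 5 below (20%, against 15.7%), and the median was 0.01. Esr1 differed by 0.10 (95% CI -0.37 to 0.57), and by -0.04 without estradiol benzoate replicate 1. The brighter Esr2 probe differed by -0.09 (95% CI -0.41 to 0.24), and by -0.03 without equilin replicate 2. The dimmer Esr2 probe differed by 0.22. Pgr, the progesterone receptor gene, differed by 0.18 (95% CI -0.18 to 0.54), and by 0.06 without equilin replicate 2. These intervals leave out a log2 difference of 1. Oxtr, the oxytocin receptor, read 0.32, 0.46 and 0.56 under equilin and -0.07, -0.25 and -0.20 under estradiol benzoate, a difference of 0.62 (95% CI 0.07 to 1.17). C3, a complement component, was the other gene above, at 0.44 (95% CI -0.002 to 0.87). Hsd17b2, which oxidises estradiol to estrone, differed by 0.15 (95% CI -0.28 to 0.58), and by 0.01 without estradiol benzoate replicate 3.

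In the growth hormone and IGF list Igfbp5, an IGF binding protein, read 5.90, 5.56 and 5.54 against 6.44, 6.201 and 6.23, a difference of -0.62 (95% CI -1.06 to -0.18), with 0.10 on a dim probe. Igfbp2 differed by -0.99 (95% CI -1.78 to -0.19). The 3 probes of Cish, a target of STAT5, disagreed: -1.18, 0.16 and 0.65. The brightest ran from -1.80 to -0.80 when single arrays were left out. Of 31 Wnt and TGF-beta genes 10 lay below (32.3%, against 15.7% of all genes) and 1 above. After quantile normalisation 4 lay below and 3 above, against 11.7% and 8.43% of all genes. Smad3, the transcription factor of TGF-beta signalling, differed by -0.48 (95% CI -0.89 to -0.06). Interferon-responsive genes had 7 of 29 below (24.1%), 5 after quantile normalisation, and a median of -0.23. Clock genes had 0 of 18 in either direction, and their gene Per2 read 1.12 on equilin replicate 1 against 4.09 and 4.47 on the others, so that its difference of -0.90 became 0.15 without that array.

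Immune and other cell types gave these values. Mpeg1, a perforin-like protein of macrophages, read 1.96, 1.58 and 1.87 under equilin and 2.47, 2.57 and 2.57 under estradiol benzoate, a difference of -0.74 (95% CI -1.13 to -0.34). Of 22 tested macrophage and dendritic cell genes 4 lay above (18.2%, against 5.52% of all genes) and 8 below (36.4%, against 15.7%). Their summed level ran from 509.5 to 544.7 under equilin and from 538.1 to 561.8 under estradiol benzoate. Ch25h, the cholesterol hydroxylase of activated macrophages and endothelium, read 0.23, 0.56 and 0.63 against 1.57, 1.44 and 1.07, a difference of -0.89 (95% CI -1.39 to -0.39). Among mast cell genes 3 of 15 lay below (20%, against 15.7% of all genes), including the carboxypeptidase Cpa3 at -0.46 (95% CI -0.81 to -0.11). Endothelial genes had 2 of 18 above and 2 below (11.1% each, against 5.52% and 15.7% of all genes). The summed level of the 17 pancreatic acinar genes was 11.9 to 14.4 under equilin and 8.51 to 23.4 under estradiol benzoate, with 0 genes apart in either direction. Klhl41 and Fndc5, genes of striated muscle, were leading genes on the lower side, at -0.76 (95% CI -1.18 to -0.33) and -0.66 (95% CI -1.04 to -0.29). Klhl41 is dim, reading -1.81, -2.45 and -2.03 against -1.47, -1.003 and -1.55. Its difference ran from -1.036 to -0.475 over the 18 alternatives that tested it. In the skeletal muscle list 1 of 7 lay below (14.3%, against 15.7% of all genes).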

How the data were processed

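RNA of single rats was hybridised to single-colour CodeLink whole rat genome arrays, 1 array per rat. The design text names the scanner as a GenePix 4000B, run under GenePix Pro 5.0. The authors deposited linear intensity values, some below 0, with array medians from 1.0007 to 1.0612, as values are after background subtraction and scaling per array. The design text also names CodeLink Expression Analysis, Acuity 3.1 and GeneSpring 7.1, and which program did these steps is not stated there or in the labels. Probe names came from the platform annotation: 16865 probes have 1 gene symbol, 165 several and 18099 none. The annotation gives no genome position, so none is printed for the probes.

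Negative values were raised to 0, and 0.103, which is 0.1 times the overall median, was added before log2 was taken and each array centred on its median. Filters removed 40 probes with over 1 missing array in any group, and then the dimmest 30% by mean. Group means of all 20 arrays in 6 groups were fitted with limma 3.58.1 in R 4.3.3 (lmFit, eBayes with a variance trend), and equilin minus estradiol benzoate was tested with Benjamini-Hochberg adjustment over 24562 probes at 0.05, two-sided. The procedure was tested on simulated data. A gene's groups do not overlap where all 3 arrays of one lie above all 3 of the other. Gene lists were described by counts and medians over 1 probe per gene, the brightest, with no list test. Leading genes are the 12 in each direction with the smallest unadjusted p among non-overlapping probes, because none passed, and the 28 fixed genes and the genes of smallest p in each list may be named too. Further list members, named to show the spread of a list, and Slc43a1, Sgsm1, Padi1 and Topors were chosen after their values were seen. The compared groups, the 39 lists and the named genes were chosen with earlier results of these data known. Same-numbered equilin and estradiol benzoate arrays did not deviate together (correlations of 0.01, -0.04 and 0.02), so the replicate numbers were not taken as pairs. The number of arrays limits the precision. Alternatives were quantile normalisation, no centring, other offsets, dim filters, variance models, sample sets and probe sets, a replicate block and leaving out each array.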

Additional observations from a re-analysis of the deposited data

Results flagged for a closer look

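Among the genes reported, 5 had a vehicle array far from the other vehicle arrays by Dixon's gap test; chance gives such a gap in about 1 in 20 groups, and 93 gene probes were examined. Vehicle replicate 1 read 2.16 for Kcnk3, where the nearest other vehicle array read 2.45, and 5.05 for Fos against 3.33. It also read -2.40 for Hsd17b2 against -1.65. The deposited median of this array was 1.0457, where the other vehicle arrays had 1.0007 to 1.0101. Vehicle replicate 4 read 7.69 for Tagln against 7.97. Vehicle replicate 2 read 2.08 for the mast cell gene Cpa3 against 2.45. These arrays share the fitted spread but do not enter the difference between equilin and estradiol benzoate. Groups of 3 arrays, which include equilin and estradiol benzoate, are too small for this check.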

How the results depend on the processing

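No probe passed in the reported setting, and the count remained 0 in both directions with no centring, with offsets of 0.03 and 0.3 times the median, with no dim filter, with a dim filter on the 6 arrays, with no variance trend and when any 1 of the 6 arrays was left out (range 0 to 0, higher and lower). Probes called higher numbered 5 (4 with 1 gene symbol) after quantile normalisation, 2 without the lowest 50% of probes, 2 with only single-symbol probes tested, 2 without raloxifene replicate 3, 1 in a fit of the 9 estrogen arrays and 1 in a fit of the 6 arrays alone; these are all single-symbol apart from 1 quantile call, and none was lower. With the replicate number as a block in the 6 arrays 2 were called higher, Cbr1 and Slc43a1 (2.82), and 0 lower. Since the numbers do not pair the rats, this bears on no pairing. Array weights gave 1042 higher (527 with 1 symbol) and 2993 lower (1766 with 1 symbol), with equilin replicate 2 weighted at 7.09 and the other 5 arrays between 0.713 and 2.03; the cause was not tested. The unadjusted count ran from 407 (without equilin replicate 3) to 8156 (array weights), against 836.

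Of 1840 gene values under alternatives, 4 changed sign, each on leaving out 1 array: Myocd (-0.10; range with single arrays left out up to 0.55), Esr1 (-0.036, up to 0.19) and Nos3 (-0.037, up to 0.53) without estradiol benzoate replicate 1, and Per2 (0.15, down to -1.52) without equilin replicate 1. Another 94 passed the threshold where the reported setting did not, and 1742 stayed on the same side with the same sign. Most of the 94 came from the array weights, under which 4035 probes passed. Among the 93 gene probes examined, only those of Cbr1, Me1 and Mpc1 passed under any other alternative. The 95% interval of the difference, with 3 rats a group and spread from 20 arrays, had a median half-width of 0.54 per gene. It lay within 1 of 0 for 75.3% of genes and within 0.5 of 0 for 13.6%.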
